A study of Homo sapiens with 6 samples.

Results

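Calretinin (CALB2) is a cytosolic calcium-binding protein, and its expression was examined here with that of 8 other EF-hand genes, CALB1, CAPS, CALM2, CALM3, CALU, RCN1, RCN2 and SDF4, in breast cancer cells of the MDA-MB-231 line that received the drug PCI-24781. These 9 genes of the 16623 in the files were found by their NCBI Gene IDs. They were chosen by name with the measured values known, and CALB2 was selected on its FPKM, which rose with dose at 24 h, so its differences are given as a description and were not tested. CALB2 was at 1.12 FPKM in the DMSO 24 h library and between 3.53 and 14.46 FPKM in the others. The 6 members above 20 FPKM moved less than 2-fold in every comparison, a contrast that the selection of CALB2 shaped. CALB1 and CAPS were at most 1.17 FPKM. In the 100 nM libraries CALB2 was above its DMSO control at 24 h and below it at 48 h.

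The EF-hand is a helix-loop-helix fold whose acidic loop holds a calcium ion. Some EF-hand proteins, such as calretinin and calbindin, are mainly buffers that take up calcium in the cytosol, while calmodulin is a sensor that binds calcium and then acts on kinases, phosphatases and channels. The CREC family (calumenin, the reticulocalbins and SDF4, also named Cab45) carries several low-affinity EF-hands in the lumen of the secretory pathway.

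The MDA-MB-231 line derives from a triple-negative breast tumour and has mesenchymal features, PCI-24781 is a hydroxamate inhibitor of histone deacetylases, and DMSO is the vehicle. Adherent cells were kept for 24 h or 48 h with DMSO or with PCI-24781 at 100 nM or 200 nM. Total RNA was extracted, and 1 mRNA library was made for each of these 6 conditions. Expression is in the authors' FPKM, that is, fragments scaled by transcript length and by library size. A difference is given as that of log2(FPKM + 1) between a PCI-24781 library and the DMSO control for that time, or between the DMSO libraries, and a gene was called when it reached 2-fold and one library or the other had at least 1 FPKM. The pseudocount of 1 understates the differences of genes with low expression. With 1 library per condition no difference has a replicate check and no p-value was calculated. The comparisons at each time share their DMSO library, and the comparison of the DMSO libraries shares one with each time. In bulk RNA, fewer cells with a transcript and less transcript per cell cannot be told apart.

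The depth, inferred from the steps between low FPKM values, was about 15700000 to 18000000 fragments per library, with the lowest value at 200 nM 48 h. The mesenchymal markers VIM (1629 to 2053 FPKM) and CD44 (154 to 219 FPKM) were high, and the hormone receptors ESR1 and PGR were at most 0.04 FPKM. The library labelled 100 nM 48 h stood apart in direction from the other PCI-24781 libraries. For 155 genes called higher at 100 nM 24 h, the level at 100 nM 48 h was below DMSO 48 h in 149, and that at 200 nM 48 h was above DMSO 48 h in 147. Between the DMSO libraries, which differ in time by their labels, 286 genes were higher at 48 h and 15 were lower. With 1 library per condition, time in culture, exchanged labels and a property of single libraries cannot be told apart. The direction given for a library at 48 h therefore holds for the libraries as labelled, and each CALB2 result is therefore also given against the other DMSO library.

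Levels of the 9 genes spanned from near 0 to 640.09 FPKM, as the plot of levels by library shows. CALM2 (403 to 640 FPKM) was above CALM3 (346 to 378 FPKM) in every library. RCN1 (90.07 to 150.28 FPKM) and CALU (90.08 to 138.62 FPKM) followed and overlapped. SDF4 (42.13 to 47.42 FPKM) and RCN2 (23.98 to 30.57 FPKM) came next without overlap. CALB2 (1.12 to 14.46 FPKM) overlapped with CAPS (0.33 to 1.17 FPKM) at its lowest library, and CALB1 was at most 0.05 FPKM. Most of the transcript of these genes was thus calmodulin, and CALB2 made up between 0.102% of their summed FPKM in DMSO 24 h and 1.24% at 200 nM 48 h.

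**Figure D1:**
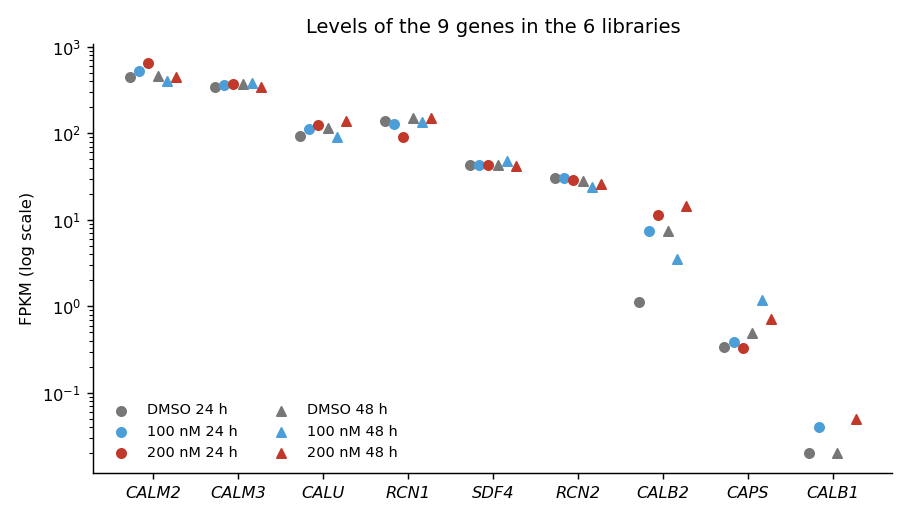
FPKM of the 9 genes (log axis) in each of the 6 libraries, with circles for 24 h, triangles for 48 h and colours for the treatment. CALB2 runs from 1.12 to 14.46 FPKM while CALM3 and SDF4 lie in narrow bands, and CALB1 values of 0 are not drawn.

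CALB2 (NCBI Gene ID 794) lies on chr16 from 71392616 to 71424341 on the plus strand in hg19. The coding sequence of its GENCODE transcript encodes 271 residues, in which a search for the EF-hand loop pattern found 5 loops. At 24 h, CALB2 had an FPKM of 1.12 with DMSO, 7.52 with 100 nM and 11.32 with 200 nM. At 48 h, it had an FPKM of 7.34 with DMSO, 3.53 with 100 nM and 14.46 with 200 nM. The level thus rose with dose at 24 h, while at 48 h the 100 nM library was the lowest and the 200 nM library the highest of all 6.

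With the inferred depths and a transcript of 1466 bases, these levels correspond to about 30, 193 and 285 fragments at 24 h and about 189, 93 and 333 fragments at 48 h. The exact 95% Poisson intervals of the 24 h levels were 0.767 to 1.62 FPKM in DMSO, 6.5 to 8.66 FPKM at 100 nM and 10.0 to 12.7 FPKM at 200 nM. At 48 h they were 6.32 to 8.45 FPKM in DMSO, 2.84 to 4.32 FPKM at 100 nM and 13.0 to 16.1 FPKM at 200 nM. These intervals cover counting error only, not variation between cultures, and fragments copied by PCR are not independent molecules. In ascending order of level, the intervals of neighbouring libraries did not overlap except for DMSO 48 h and 100 nM 24 h, whose FPKM ratio was 1.02 (exact binomial interval 0.836 to 1.26).

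**Figure D2:**
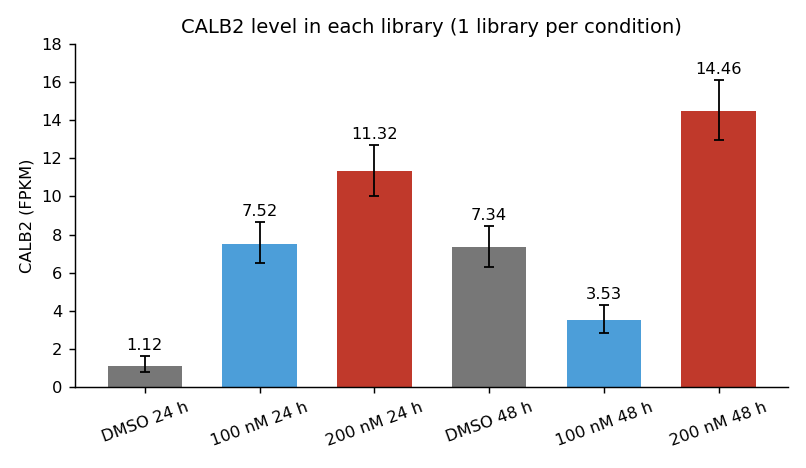
CALB2 level (FPKM) in the 6 libraries, 1 library per condition, with exact 95% Poisson intervals from the inferred fragments, which cover counting error only. DMSO 24 h is lowest at 1.12 FPKM, 200 nM 48 h is highest at 14.46 FPKM, and DMSO 48 h (7.34 FPKM) is level with 100 nM 24 h (7.52 FPKM).

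Against DMSO 24 h, CALB2 was higher by 2.01 on the log2 scale at 100 nM, an FPKM ratio of 6.71 (4.49 to 10.1). At 200 nM it was higher by 2.54, a ratio of 10.1 (6.81 to 15.0). Of the tested genes, 7 of 11475 had a larger log2 difference than CALB2 at 100 nM and 19 of 11660 at 200 nM. CALB2 was selected on these 24 h values, so its ranks and intervals here are descriptions and lend no support to a rise. Both CALB2 differences rest on the DMSO 24 h library. Against DMSO 48 h, a reference chosen after seeing the data, the same libraries differed by 0.031 at 100 nM and 0.56 at 200 nM on the log2 scale, and neither reached 2-fold.

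At 48 h, the log2 difference of CALB2 was -0.88 at 100 nM, an FPKM ratio of 0.481 (0.371 to 0.620). At 200 nM it was 0.89, a ratio of 1.97 (1.65 to 2.37). Neither reached 2-fold on the log2(FPKM + 1) scale, although 62 of 11514 tested genes had a lower value at 100 nM and 40 of 11665 a higher one at 200 nM. With a pseudocount of 0.1 in place of 1, the difference at 100 nM was -1.04 and passed the 2-fold threshold. Against DMSO 24 h, the 48 h libraries were higher by 1.10 at 100 nM and 2.87 at 200 nM, so the direction at 100 nM 48 h depended on the DMSO library.

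Between the DMSO libraries, CALB2 was higher by 1.98 on the log2 scale at 48 h, an FPKM ratio of 6.55 (4.37 to 9.81), with a larger difference in 14 of 11490 tested genes. This difference without the drug was about the size of that at 100 nM 24 h. It uses the DMSO 24 h library, whose value was part of the selection of CALB2. Within a time, the step from 100 nM to 200 nM uses no DMSO library. It was 0.53 on the log2 scale at 24 h, a ratio of 1.51 (1.25 to 1.81), and 1.77 at 48 h, a ratio of 4.10 (3.25 to 5.22). CALB2 was thus higher in the 200 nM library than in the 100 nM library at both times, as labelled. The 24 h step is part of the values on which CALB2 was selected. The 48 h step starts from the 100 nM 48 h library, which stood apart in direction from the other PCI-24781 libraries.

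The members' calls were few, and each was CALB2. At 100 nM 24 h, 7 of the 9 genes passed the FPKM minimum and 1 was called higher, and over all genes 1.35% were called higher and 0.131% lower. At 200 nM 24 h, 1 of 7 was called higher, beside 4.47% of all tested genes higher and 1.48% lower. At 100 nM 48 h, none of 8 was called, beside 0.0608% of all genes higher and 0.408% lower. At 200 nM 48 h, none of 7 was called, beside 0.206% higher and 0.06% lower. In the DMSO libraries, 1 of 7 was called higher at 48 h, beside 2.49% higher and 0.131% lower. Nothing is read from these counts against the background, because CALB2 was selected on these differences. The plot of differences shows CALB2 outside the 2-fold band in 3 of the 5 comparisons and the other tested members inside it in all 5.

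**Figure D3:**
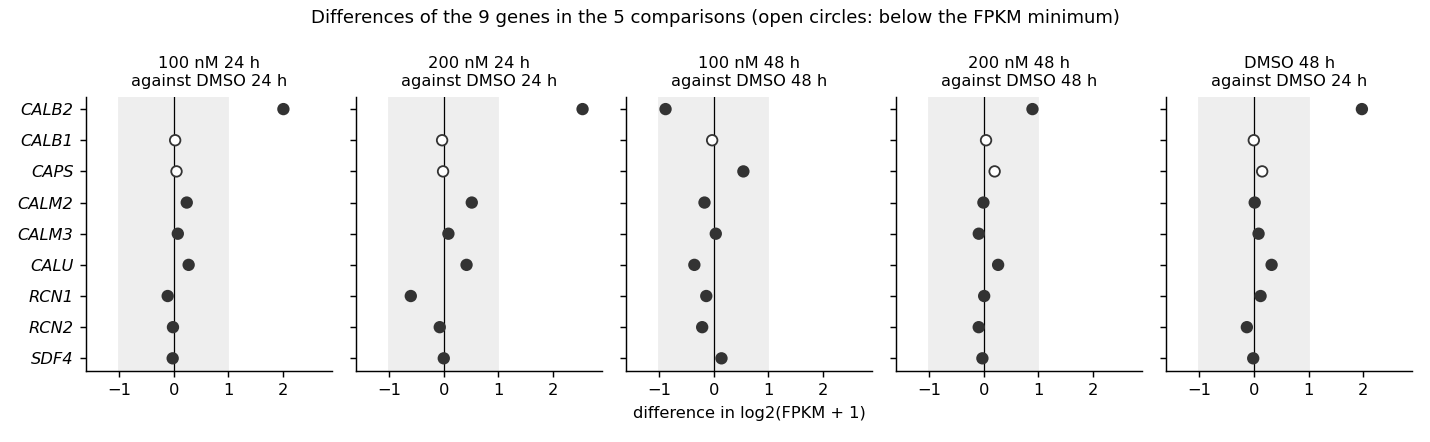
Difference in log2(FPKM + 1) of the 9 genes in the 5 comparisons named above each panel, with the grey band for differences under 2-fold and open circles for genes below the FPKM minimum. CALB2 lies at 2.01, 2.54, -0.88, 0.89 and 1.98, and every other tested member lies within the band.

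CALB1 (NCBI Gene ID 793), or calbindin, the closest relative of calretinin among the members, lies on chr8 from 91070836 to 91095109 on the minus strand in hg19. It was listed at 0.02, 0.04 and 0 FPKM at 24 h and at 0.02, 0 and 0.05 FPKM at 48 h, in the order DMSO, 100 nM and 200 nM. These values stand for about 2 fragments at most, and 3 fragments would give between 0.0658 and 0.0754 FPKM. No level above this floor was detected in any library, and no fold is given. Calretinin is also a marker of mesothelial cells and interneurons, and 5 of 9 further markers of these cells were in the files. Mesothelial WT1, LRRN4 and PDPN were at most 0.28 FPKM. MSLN was between 9.26 and 15.68 FPKM with its highest value at 100 nM 48 h, where CALB2 was low, and the interneuron gene GAD1 stayed between 3.29 and 4.07 FPKM.

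Of the luminal markers, EPCAM (2.26 to 4.70 FPKM) and ERBB2 (13.16 to 21.36 FPKM) ran opposite to CALB2. Their correlations with it over the 6 libraries were -0.987 and -0.916, each over a range under 2-fold in log2(FPKM + 1). That of GATA3 was -0.266. Correlations of large size with CALB2 were common, since 313 of 1233 ranked genes had one of at least 0.9, as described below. EPCAM and ERBB2 did not reach the range minimum of that ranking. The share of all genes with such negative values was not calculated, so nothing particular to luminal markers is read from them. PGR (-0.195) and ESR1 (0.108) were at most 0.04 FPKM, so nothing is read from their correlations. The summed FPKM of EPCAM, ESR1, PGR, ERBB2 and GATA3 was, at 24 h, 26.94 with DMSO, 20.34 with 100 nM and 16.15 with 200 nM, and 20.78, 25.01 and 17.63 at 48 h. It was highest where CALB2 was lowest, with ERBB2 as its main part, while ESR1 was listed at 0 to 0.04 FPKM. The part of these markers in the CALB2 values was not tested.

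CAPS (NCBI Gene ID 828) encodes calcyphosine, a cytosolic EF-hand protein, and lies on chr19 from 5913655 to 5916222 on the plus strand in hg19. It was at 0.34, 0.39 and 0.33 FPKM at 24 h and at 0.49, 1.17 and 0.71 FPKM at 48 h, in the order DMSO, 100 nM and 200 nM. The 100 nM 48 h library was the highest, and there alone CAPS passed the FPKM minimum, so its test at that dose rests on the library in which it was high. The log2 difference there was 0.54, an FPKM ratio of 2.39 (1.33 to 4.85) from about 15 and 38 fragments. With a pseudocount of 0.1 it was 1.11 and passed the 2-fold threshold. CAPS thus peaked in a library in which CALB2 was low, but it did not run opposite to CALB2. It was also low (0.34 FPKM) in DMSO 24 h, where CALB2 was lowest, and its correlation with CALB2 over the 6 libraries was -0.014.

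CALM2 and CALM3 encode the same protein, calmodulin. In GENCODE transcripts their coding sequences of 447 bases encode 149 identical residues of 149, but share 81.7% of their bases. The first EF-hand loop, residues 21 to 32, is shown because its 36 bases let the genes be told apart at 7 positions, given in capitals.
CALM2: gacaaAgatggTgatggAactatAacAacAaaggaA
CALM3: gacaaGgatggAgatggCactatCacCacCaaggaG
The longest run of coding bases shared by the pair was 17 bases, so a longer coding read cannot match both genes without a mismatch. The submitters' notes name RSEM, which divides reads that match several genes by an estimate. Its settings and the use of strand are not given, so any error in the split between the calmodulin genes was not measured.

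CALM2 (NCBI Gene ID 805) lies on chr2 from 47387221 to 47404075 on the minus strand in hg19. It was at 448.0, 529.31 and 640.09 FPKM at 24 h and at 453.13, 403.06 and 451.13 FPKM at 48 h, in the order DMSO, 100 nM and 200 nM. It was highest at 200 nM 24 h, and the other libraries lay between 403.06 and 529.31 FPKM. The log2 differences were 0.24 and 0.51 at 24 h, -0.17 and -0.01 at 48 h, and 0.02 between the DMSO libraries, all under 2-fold.

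CALM3 (NCBI Gene ID 808) lies on chr19 from 47104512 to 47114039 on the plus strand in hg19. It was at 346.64, 365.58 and 368.19 FPKM at 24 h and at 368.25, 378.05 and 345.69 FPKM at 48 h. Its log2 differences were between -0.09 and 0.09 in the 5 comparisons. The ratio of CALM2 to CALM3 was, at 24 h, 1.29 with DMSO, 1.45 with 100 nM and 1.74 with 200 nM, and 1.23, 1.07 and 1.31 at 48 h, so the genes for the same protein did not keep 1 ratio across libraries. The summed FPKM of CALM2 and CALM3 was highest at 200 nM 24 h (1008.28) and lowest at 100 nM 48 h (781.11).

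CALU and RCN1 are CREC proteins of the endoplasmic reticulum, and neither was called in any comparison. Their upstream windows are shown because these members had the CREC differences of largest size, 0.42 and -0.60 at 200 nM 24 h, each from 1 library. The windows can also be compared directly. Against DMSO 48 h, a reference chosen after seeing the data, these differences were 0.09 for CALU and -0.72 for RCN1. The windows are the 250 bases before the annotated start from RefSeq (GRCh38.p14), whose table held 6 of the 9 genes and not CALB2, CALB1 or CALM2. Capitals mark the GC box (GGGCGG) and the CCAAT box (CCAAT) on either strand.
CALU, chr7:128739109-128739358 plus strand: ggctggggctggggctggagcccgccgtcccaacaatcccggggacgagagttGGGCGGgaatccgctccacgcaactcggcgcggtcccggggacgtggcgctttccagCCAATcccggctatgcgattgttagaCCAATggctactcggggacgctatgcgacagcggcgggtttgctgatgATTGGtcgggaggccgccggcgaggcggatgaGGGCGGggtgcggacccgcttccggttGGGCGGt
RCN1, chr11:32090824-32091073 plus strand: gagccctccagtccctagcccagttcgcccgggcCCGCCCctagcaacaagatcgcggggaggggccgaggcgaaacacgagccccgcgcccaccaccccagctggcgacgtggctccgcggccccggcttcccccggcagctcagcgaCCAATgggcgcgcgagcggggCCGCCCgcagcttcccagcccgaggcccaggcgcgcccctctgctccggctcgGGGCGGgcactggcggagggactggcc
Both windows hold 3 GC boxes and 30 CpG dinucleotides. CALU has 3 CCAAT boxes and RCN1 has 1, and neither has a TATA box (TATAAA). The CREC members with small differences had like windows, which are not shown. RCN2 has 3 GC boxes, 2 CCAAT boxes and 33 CpG dinucleotides, and SDF4 has 2, 2 and 44. These features were thus not particular to CALU and RCN1. Of 35093 windows of this length, 42.6% held a GC box, 32.0% a CCAAT box and 10.7% a TATA box, with a median of 11 CpG dinucleotides. The window of CAPS held neither box. These matches describe letters only.

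CALU (NCBI Gene ID 813) encodes calumenin and lies on chr7 from 128379346 to 128413477 on the plus strand in hg19. It was at 91.9, 111.38 and 123.15 FPKM at 24 h and at 115.39, 90.08 and 138.62 FPKM at 48 h, in the order DMSO, 100 nM and 200 nM. The 2 lowest libraries were DMSO 24 h and 100 nM 48 h, which were also the lowest for CALB2, and the highest was 200 nM 48 h for both. Its log2 differences were 0.27 and 0.42 at 24 h, -0.35 and 0.26 at 48 h and 0.33 between the DMSO libraries, so it stayed under 2-fold.

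RCN1 (NCBI Gene ID 5954) encodes reticulocalbin 1 and lies on chr11 from 32112477 to 32127272 on the plus strand in hg19. It was at 137.13, 127.14 and 90.07 FPKM at 24 h and at 149.49, 135.96 and 150.28 FPKM at 48 h. The 200 nM 24 h library was the lowest, and the others lay between 127.14 and 150.28 FPKM. Its log2 differences were -0.11 and -0.60 at 24 h, and between -0.14 and 0.12 in the other comparisons. At a 1.5-fold threshold RCN1 was the member besides CALB2 that was called at 200 nM 24 h. At that threshold 1462 of the 11660 tested genes were called higher and 884 lower. A lower log2 difference than that of RCN1 was found in 812 genes, so nothing is read from this call. The ratio of CALU to RCN1 was, at 24 h, 0.670 with DMSO, 0.876 with 100 nM and 1.37 with 200 nM. At 48 h it was 0.772, 0.663 and 0.922 in that order.

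RCN2 (NCBI Gene ID 5955), also a reticulocalbin, lies on chr15 from 77223962 to 77242601 on the plus strand in hg19. It was at 30.57, 30.31 and 29.04 FPKM at 24 h and at 27.91, 23.98 and 26.12 FPKM at 48 h, with all log2 differences between -0.21 and -0.01. SDF4 (NCBI Gene ID 51150), whose protein Cab45 resides in the Golgi lumen, lies on chr1 from 1152288 to 1167447 on the minus strand in hg19. It was at 43.21, 42.68 and 43.27 FPKM at 24 h and at 42.88, 47.42 and 42.13 FPKM at 48 h, with log2 differences between -0.02 and 0.14. Neither gene came near 2-fold in any comparison.

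The wider group was read from lists of EF-hand families and endoplasmic reticulum calcium buffers. Of 78 further listed genes, 68 were in the files, and between 40 and 42 passed the FPKM minimum in each comparison. At 100 nM 24 h, 2 of 40 were called higher and none lower, and the median log2 difference was 0.10 beside 0.01 over all tested genes. At 200 nM 24 h, 3 of 42 were higher and none lower, with a median of 0.11 beside 0.01. At 100 nM 48 h, 1 of 42 was lower and none higher, with a median of -0.08 beside -0.01, and at 200 nM 48 h none of 41 was called, with a median of -0.03 beside 0.01. Between the DMSO libraries, 2 of 41 were higher, with a median of 0.09 beside 0.00. These counts of at most 3 genes stand beside the background shares already given.

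VSNL1, which encodes the neuronal calcium sensor visinin-like 1, was at 0.33, 2.33 and 2.97 FPKM at 24 h and at 2.12, 0.55 and 4.63 FPKM at 48 h, in the order DMSO, 100 nM and 200 nM. Like CALB2 it was lowest in DMSO 24 h, next lowest at 100 nM 48 h and highest at 200 nM 48 h. Its log2 differences were 1.32 and 1.58 at 24 h, -1.01 and 0.85 at 48 h and 1.23 between the DMSO libraries. EFHD1, a mitochondrial EF-hand protein, was at 4.87, 11.04 and 12.77 FPKM at 24 h and at 10.77, 8.13 and 12.37 FPKM at 48 h, with log2 differences of 1.04 and 1.23 at 24 h, and it just reached 2-fold between the DMSO libraries. TESC, or tescalcin, a calcineurin B-like protein, was listed at 0 FPKM in DMSO 24 h and at 1.35 FPKM at 200 nM 24 h, and it was at most 0.31 FPKM in the others. VSNL1 and EFHD1 were called higher in both 24 h comparisons and between the DMSO libraries, and TESC at 200 nM 24 h, while VSNL1 was called lower at 100 nM 48 h. VSNL1 and TESC were below 1 FPKM in DMSO 24 h and passed the minimum through the library in which they were high, so the filter shaped these calls. Against DMSO 48 h, a reference chosen after seeing the data, the log2 differences at 100 nM 24 h and 200 nM 24 h were 0.09 and 0.35 for VSNL1 and 0.03 and 0.23 for EFHD1, and that of TESC at 200 nM 24 h was 0.89, so none reached 2-fold.

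The most highly expressed gene of each list, by its mean over the 6 libraries, was not called in any comparison, CALB2 apart. In the neuronal sensor list this was HPCAL1, or hippocalcin-like 1, at 111 to 211 FPKM, with its highest level at 200 nM 24 h (log2 difference 0.88). In the calcineurin B-like list it was CHP1, at 37.55 to 64.83 FPKM, also highest at 200 nM 24 h (0.77), although CIB1 was above it in both DMSO libraries and at 100 nM 48 h. The calpain small subunit CAPNS1 (372.62 to 509 FPKM) was highest at 100 nM 48 h (0.30). EFHD2 (65.8 to 108.64 FPKM), an actin-binding protein kept in the mitochondrial list with its paralogue EFHD1, the centriole protein CETN3 (30.5 to 37.77 FPKM) and the secretory cargo receptor subunit MCFD2 (89.95 to 105.13 FPKM) differed by at most 0.71 in size. The endoplasmic reticulum buffer calreticulin (CALR), at 673 to 840 FPKM, differed by at most 0.24. CAPS2 had the highest mean of the calcyphosines (0.47 to 1.54 FPKM) but was below CAPS at 100 nM 48 h, and the parvalbumin list was represented by OCM, at most 0.16 FPKM. The plot by list shows these differences at 200 nM, where the spread was wider at 24 h than at 48 h.

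**Figure D4:**
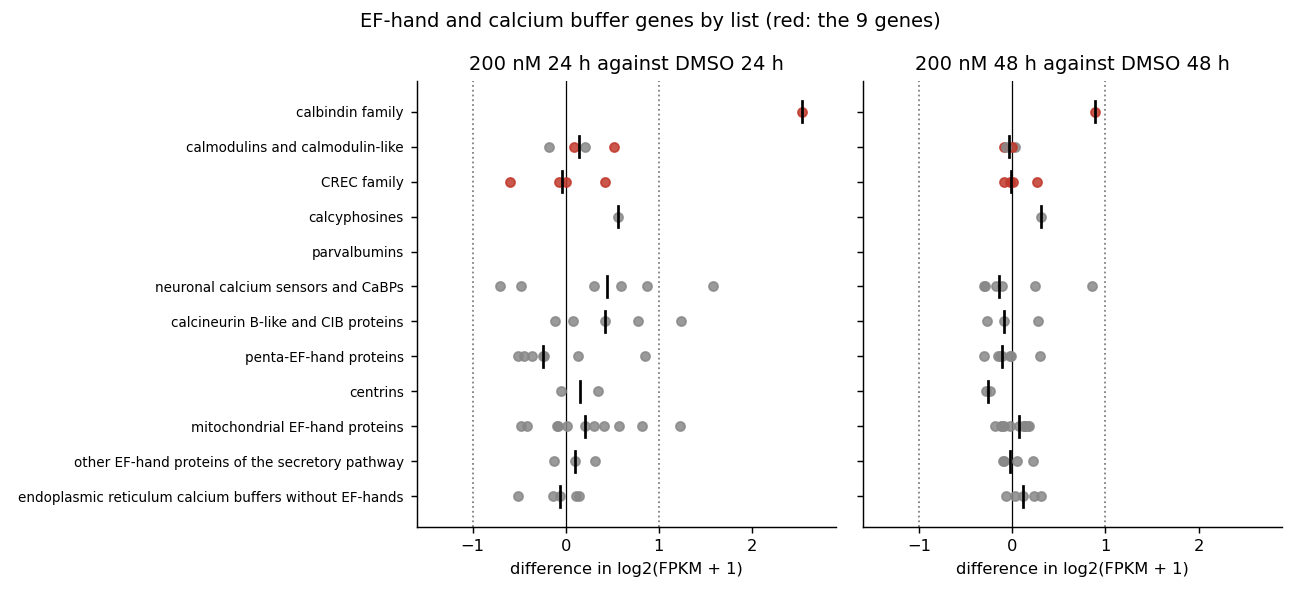
Difference in log2(FPKM + 1) of each tested gene, by list, at 200 nM 24 h (left) and 200 nM 48 h (right) against DMSO of that time, with red for the 9 genes, black bars for list medians and dotted lines at 2-fold. CALB2 lies at 2.54 and 0.89, the farthest right in each panel, and no gene passes 2-fold at 48 h.

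To describe which genes ran most like CALB2, the Pearson correlation of log2(FPKM + 1) over the 6 libraries was calculated for 1233 genes that reached 1 FPKM in some library and had a range of at least 1 on that scale. The points are the same 6 libraries for every gene, each with its own depth and scaling, so the correlations are descriptions. The pattern was common, and 313 of the 1233 genes had a correlation of at least 0.9. The 5 highest were DAB2 (0.998), an adaptor of clathrin endocytosis, TMEM45A (0.997), a transmembrane protein, ABLIM1 (0.996), an actin-binding LIM protein, TMCC2 (0.995), a coiled-coil membrane protein, and REPS2 (0.995), which carries EH domains. DAB2 was at 11.19, 19.23 and 21.95 FPKM at 24 h and at 18.58, 15.48 and 24.11 FPKM at 48 h, and TMEM45A was at 3.6, 12.6 and 16.58 FPKM and at 12.91, 6.94 and 18.57 FPKM. As in CALB2, both were lowest in DMSO 24 h and highest at 200 nM 48 h, which follows from their selection by correlation over these libraries.

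Among the EF-hand genes, GCA, or grancalcin, had a correlation of 0.992 with CALB2, EFHD1 one of 0.979 and VSNL1 one of 0.964. CAPS2, whose range was under 2-fold on this scale, had one of 0.974. GCA was not called in any comparison and is named after its values were seen. GCA was at 5.36, 9.0 and 10.48 FPKM at 24 h and at 9.7, 7.0 and 12.12 FPKM at 48 h, in the order DMSO, 100 nM and 200 nM. Of the members, CALU had a correlation of 0.919 over a range under 2-fold, CALM2 one of 0.471 and CALM3 one of 0.083. CAPS (-0.014), RCN1 (-0.226), RCN2 (-0.167) and SDF4 (-0.416) had negative ones, and CALB1 is left out because it was at its floor. The plot relative to each gene's highest level shows CALB2 and VSNL1 with the lowest starting points.

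**Figure D5:**
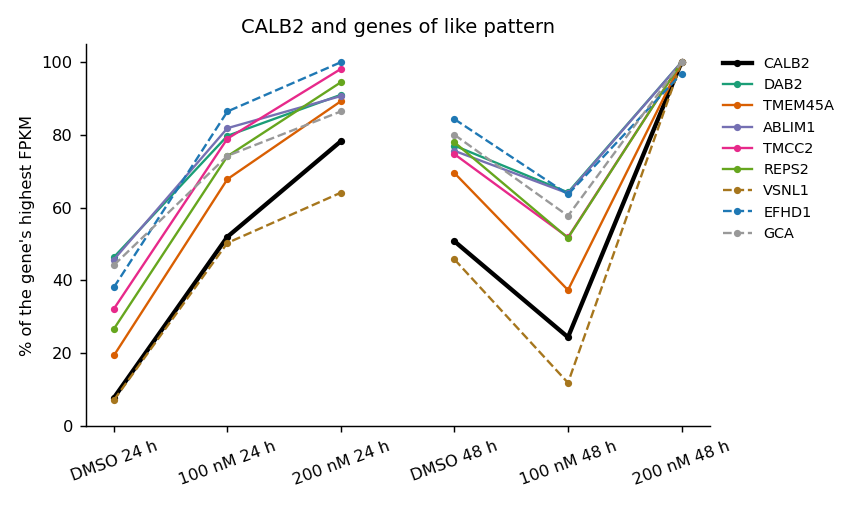
FPKM of CALB2, the 5 genes most like it and the EF-hand genes VSNL1, EFHD1 and GCA (dashed) in the 6 libraries, as a percentage of each gene's highest FPKM, with lines joining the libraries of a time. All genes are lowest in DMSO 24 h and, at 48 h, lower at 100 nM than in DMSO. The 5 genes were picked for this likeness, and GCA was named after its values were seen.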

How the data were processed

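RNA-seq was done on 6 libraries of MDA-MB-231 cells, 1 per condition, grouped by their labels. The authors deposited 1 FPKM value per gene and library, with 2 decimals, and the submitters' processing notes name Bowtie2, RSEM and hg19 without versions, roles or order. mRNA enrichment or rRNA depletion is stated for the libraries, and the use of strand is not given in the sources used here. Gene names were matched by NCBI Gene ID to RefSeq, which held 16585 of 16623 genes, and coordinates are those of the files.

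The members and lists were chosen with earlier results of these data known. A gene was called at a difference of at least 2-fold in log2(FPKM + 1) when at least 1 of the libraries compared reached 1 FPKM. The files hold no counts, so no count model was used and no p-value was calculated. Every member is named, as are other listed genes that were called, the gene of each list with the highest mean FPKM, and the 5 genes most like CALB2. GCA was added after its values were seen, and 1 other listed gene is not reported here. Depth was inferred from low values of single-transcript genes with lengths between 300 and 1500 bases (GENCODE release 29), and approximate fragments with exact 95% intervals were derived for CALB2, CALB1 and CAPS. The code that makes the calls, not the differences themselves, was tested on simulated data. Coding sequences came from GENCODE release 29 and upstream windows from RefSeq (GRCh38.p14). The alternatives were other pseudocounts, filters, scalings, a 1.5-fold threshold and the other DMSO library. Python 3.11.15, numpy 2.4.6, pandas 2.3.3, scipy 1.17.1 and matplotlib 3.10.9 were used.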

Additional observations from a re-analysis of the deposited data

Results flagged for a closer look

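Among the members and other listed genes, the only ones examined for this, CALB2 and VSNL1 were flagged. They differed from DMSO in opposite directions at the same dose at the 2 times, as the libraries are labelled. This direction was not particular to them. Of the 155 genes called higher at 100 nM 24 h, 149 were below DMSO 48 h at 100 nM 48 h. At 100 nM, the log2 difference of CALB2 from DMSO was 2.01 at 24 h and -0.88 at 48 h, and that of VSNL1 was 1.32 at 24 h and -1.01 at 48 h. The difference between the times was not tested, since each condition has 1 library. The CALB2 value at 48 h did not reach 2-fold, and against DMSO 24 h it was 1.10. Exchanged labels and a difference between the times cannot be told apart, and CALB2 in DMSO 48 h (7.34 FPKM) was level with 100 nM 24 h (7.52 FPKM).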

How the results depend on the processing

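No call can be checked by leaving out a replicate, because each condition has 1 library, and no paired analysis was possible because the differences come from no test. The CALB2 difference at 100 nM 48 h changed sign with the reference library, and the others kept theirs. With pseudocounts of 0.1 and 0.01 and after rescaling to TPM, the CALB2 difference at 24 h was 2.64, 2.74 and 2.37 for the lower dose and 3.23, 3.33 and 2.94 for the higher one. Between the DMSO libraries it was 2.61, 2.70 and 2.31. With those pseudocounts it was -1.04 and -1.05 at 100 nM 48 h. A TPM is larger than its FPKM by a factor of 2.34 to 2.39 here, so a pseudocount of 1 weighs less on it. The reference library mattered most. Against DMSO 48 h, an alternative chosen after seeing the data, CALB2 at 24 h differed by 0.031 for 100 nM and by 0.56 for 200 nM, with 0 members called at either dose. Against DMSO 24 h, CALB2 at 48 h differed by 1.10 for 100 nM and by 2.87 for 200 nM, with 1 member called at each. With a 1.5-fold threshold, 2 members were called at 200 nM 24 h and 1 with each dose at 48 h, and with pseudocounts of 0.1 and 0.01, 2 members at 100 nM 48 h. Nothing is read from these member counts, and the counts over all genes at the same settings are given below. Median-of-ratios scaling moved each CALB2 difference by less than 0.1 on the log2 scale, and neither it nor dropping the filter changed a count of members called. Over all genes, the counts higher and lower at 200 nM 24 h were 880 and 283 with a pseudocount of 0.1, 935 and 297 with 0.01, 323 and 151 with a minimum of 1 FPKM in both libraries, 855 and 227 as TPM, and 1462 and 884 at 1.5-fold. With these settings in turn, 100 nM 24 h gave 383 higher with 41 lower, 418 with 50, 99 with 10, 332 with 34 and 636 with 144. The library of 100 nM 48 h gave 32 with 121, 33 with 140, 2 with 29, 21 with 88 and 58 with 202. The library of 200 nM 48 h gave 103 with 25, 126 with 27, 16 with 4, 81 with 16 and 178 with 54. The pair of DMSO libraries gave 564 with 42, 589 with 48, 200 with 11, 492 with 39 and 975 with 223. At the inferred depth, CALB1 and CAPS rest on few fragments.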
